A study of Mus musculus with 18 samples.

Results

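Astrocytes carrying a mutation in the translation factor eIF2B were compared with wild-type (WT) astrocytes for how their ribosome footprints had responded to inflammatory cytokines after 48 hr. For each gene the value was a difference of log2 folds: the footprint fold of treated over untreated cells in the mutant, minus the same fold in WT. A positive difference means that the mutant fold stood above the WT fold. All genes were taken, without selection, and 12204 of the 12205 genes in the authors' deposited table had both folds. The exception was Dynlt1b, which lacks the mutant fold.

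The mutant cells were astrocytes in primary culture from mice with the Eif2b5 mutation R132H on both alleles. One group was left untreated and the other received TNFα at 20 ng/ml together with IL-1β at 0.25 ng/ml for 48 hr, within a culture of 120 hr in all. Ribo-seq libraries, which sequence the mRNA stretches of 26 to 34 nt that ribosomes shield from nuclease, came from 3 batches (A, B and C) in each of these groups, 6 of the series' 18 libraries. The WT libraries were made outside this series, so genotype and library set cannot be told apart. The table holds a single fold per gene, genotype and time, pooled over batches. There are no replicate values, no levels and no library totals, so no gene was tested, a difference carries no error, and depth is unknown. Because both folds are ratios, a difference can arise from the untreated cells as well as from the treated ones. These cells are bulk cultures, in which fewer cells of a type and less RNA per cell cannot be told apart.

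eIF2B recharges the initiation factor eIF2 with GTP, which every ribosome needs to place the first tRNA. Its point mutations cause vanishing white matter disease, in which astrocytes are among the affected cells. When eIF2 recharging slows, most mRNAs are translated less, while a few with upstream reading frames, such as Atf4, are translated more. TNFα and IL-1β act through NF-kB and MAP kinases, and astrocytes exposed to them make chemokines, cytokines, complement and antigen-presentation proteins.

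Chemokines stood at both ends of the comparison, and the promoter windows of 4 of them are shown because they differ in the direction of the difference. Each runs from 250 bases before to 50 after the RefSeq transcription start (GRCm38.p6), 5′ to 3′. Capitals mark matches to an NF-kB-type motif, GGGNNTTNCC, on either strand.
Ccl20 (chr1:83116516-83116815, plus strand): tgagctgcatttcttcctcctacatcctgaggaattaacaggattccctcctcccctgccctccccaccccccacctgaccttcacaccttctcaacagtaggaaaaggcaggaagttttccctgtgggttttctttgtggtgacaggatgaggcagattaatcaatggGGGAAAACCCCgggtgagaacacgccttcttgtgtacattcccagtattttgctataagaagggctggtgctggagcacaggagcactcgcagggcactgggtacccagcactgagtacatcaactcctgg
Cxcl2 (chr5:90903649-90903948, plus strand): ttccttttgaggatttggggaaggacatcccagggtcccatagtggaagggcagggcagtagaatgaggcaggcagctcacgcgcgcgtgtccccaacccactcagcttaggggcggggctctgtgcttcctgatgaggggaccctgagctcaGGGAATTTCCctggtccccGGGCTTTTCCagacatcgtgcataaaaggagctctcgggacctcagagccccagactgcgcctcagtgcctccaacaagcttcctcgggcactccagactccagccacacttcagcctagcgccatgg
Cxcl9 (chr5:92328030-92328329, minus strand): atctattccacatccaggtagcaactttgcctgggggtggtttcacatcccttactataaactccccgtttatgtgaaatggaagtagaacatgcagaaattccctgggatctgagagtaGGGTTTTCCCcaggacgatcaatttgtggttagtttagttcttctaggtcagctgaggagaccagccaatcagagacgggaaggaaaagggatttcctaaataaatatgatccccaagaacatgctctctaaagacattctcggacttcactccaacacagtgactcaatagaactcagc
Ccl17 (chr8:94810203-94810502, plus strand): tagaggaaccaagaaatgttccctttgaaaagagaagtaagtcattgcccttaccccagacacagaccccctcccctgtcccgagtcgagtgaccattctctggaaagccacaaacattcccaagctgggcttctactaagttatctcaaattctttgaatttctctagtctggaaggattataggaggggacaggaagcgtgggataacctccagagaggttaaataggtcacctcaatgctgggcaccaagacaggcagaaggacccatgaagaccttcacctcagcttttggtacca
Ccl20, whose footprint response stood higher in the mutant, holds 2 overlapping matches. Cxcl2 and Cxcl9, which stood lower, hold 2 and 1, and Ccl17, the lowest chemokine, holds none in this window. The motif occurred in 4.79% of all 32851 windows, in 608 (6.49%) of the 9375 measured genes that have a window, in 6 of the 13 measured chemokines that have a window, in 7 of 78 genes with a difference of 1 or more, and in 7 of 70 genes with a difference of -1 or less. An interferon-response-type motif, GAAANNGAAA on either strand, had no match in these 4 windows. It occurred in 3.44% of all windows, in 3.78% of the measured genes that have one, and in 23 of the 35 windowed genes of the interferon response list. A match is a string of letters and not a measured binding site.

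One more window is shown, for a pair of neighbouring collagen genes that both stood higher in the mutant. Col4a4 and Col4a3 lie head to head on chromosome 1 (GRCm38), Col4a4 at 82448423 to 82586849 on the minus strand and Col4a3 at 82586921 to 82722059 on the plus strand, 72 bases apart. The Col4a4 window therefore also covers the annotated start of Col4a3, and it has no match to either motif.
Col4a4 (chr1:82586800-82587099, minus strand): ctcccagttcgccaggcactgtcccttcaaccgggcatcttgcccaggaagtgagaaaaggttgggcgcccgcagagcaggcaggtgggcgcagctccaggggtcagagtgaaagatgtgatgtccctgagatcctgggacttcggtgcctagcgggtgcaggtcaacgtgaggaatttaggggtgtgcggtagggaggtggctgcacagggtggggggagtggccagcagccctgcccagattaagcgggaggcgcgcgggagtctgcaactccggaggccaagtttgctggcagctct

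For most genes the folds of both genotypes lay close together. The median difference over all 12204 genes was 0.0012, the middle 50% of genes lay between -0.20 and 0.18, and 89.4% lay within 0.5 of 0. The mutant fold regressed on the WT fold across genes had a slope of 0.93, and 6115 genes stood above 0 and 6089 below. A difference of 1, that is 2-fold, was used as the size from which genes were counted. It was reached upward by 114 genes, 0.934% of all, and downward by 108 genes, 0.885% of all, together 1.82%. The nearest genes inside and outside the upward line stood at 1.00 and 0.999, and 8 genes lay within 0.005 of either line, the rounding error of the deposited mutant folds, so the counts are not exact to the gene. A fold of 1 or more is called raised, and one of -1 or less lowered, as a size and not as the result of a test.

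**Figure D1:**
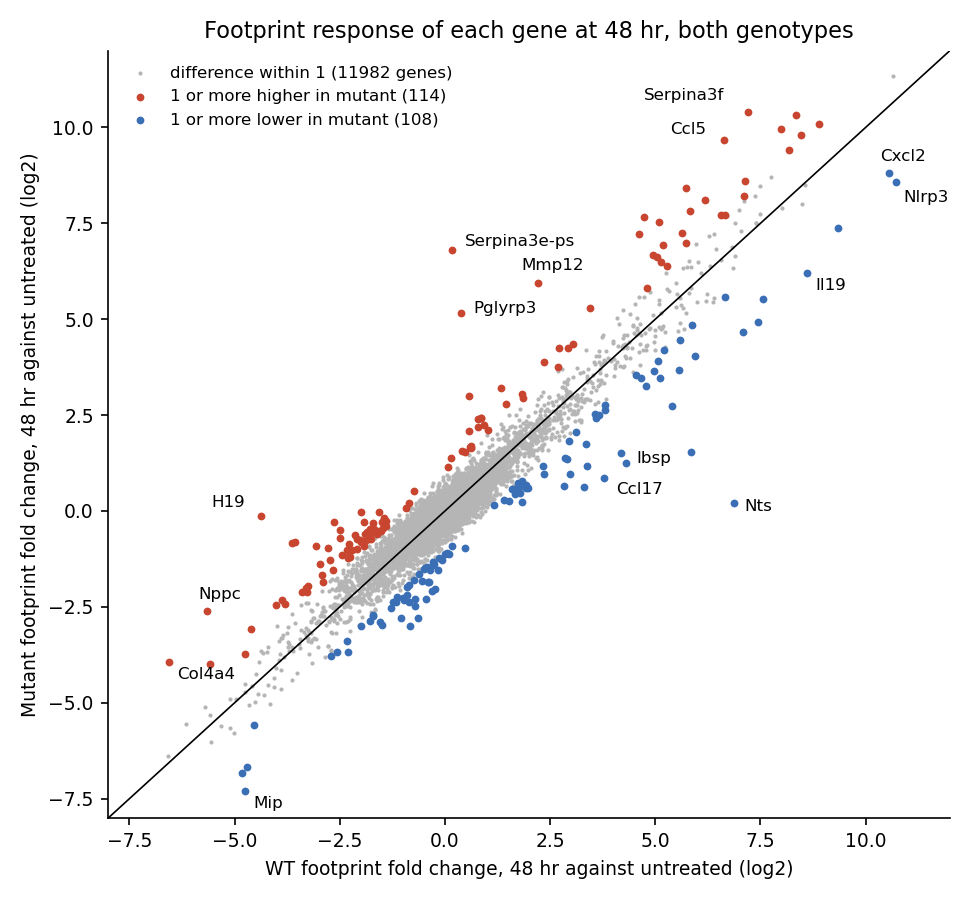
Each point is a gene, with its WT footprint fold at 48 hr on the x axis and its mutant footprint fold on the y axis, both log2 and both from the authors' deposited table, and the line marks equal folds. Of 12204 genes, 114 lie 1 or more above the line and 108 lie 1 or more below it. Nts is the gene farthest below and Serpina3e-ps the one farthest above.

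Most of the 222 genes past the line differed in the size of a response, or in whether there was one, and none was raised by 1 or more in one genotype while lowered by 1 or more in the other. Among the 114 genes higher in the mutant, 37 were raised by at least 1 in both genotypes, 16 were raised in the mutant alone, 34 were lowered in WT alone and 24 were lowered in both. Among the 108 lower genes, 35 were raised in both, 21 were raised in WT alone, 30 were lowered in the mutant alone and 20 were lowered in both. That left 5 genes that stayed within 1 of 0 in both genotypes: Eaf2, Kxd1 and Caprin2 among the higher ones, and Ldb3 and the small nucleolar RNA Snora31 among the lower ones. These 5 are named because of their class, after their values were seen.

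Large differences sat with large responses. Among the 8184 genes whose mean fold over both genotypes lay between -0.5 and 0.5, 0.0611% passed the line in either direction. Between a mean fold of 2 and 4 it was 9.68% of 279 genes, and above 4 it was 29.2% of 161 genes. The SD of the difference across genes went from 0.26 in the first of these bins to 1.12 in the last. Levels are not in the table, so how many footprints stood behind such folds cannot be seen. A deposited table of the authors that gives translation scores for fewer genes held 2292 of the 12204 genes (18.8%), but only 2 of the 222, Ctgf at -1.02 and Kxd1 at 1.07. The SD of the difference was 0.25 among genes in that table and 0.40 among the others.

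The 15 highest named genes included secreted and surface proteins of inflamed or myeloid cells. For several of them the footprint fold in the mutant stood far above that in WT. For Serpina3e-ps, an unprocessed pseudogene in a cluster of serine protease inhibitors, the authors' deposited table gave a footprint fold of 0.17 in WT and 6.81 in the mutant, a difference of 6.64. Pglyrp3, a peptidoglycan recognition protein, followed with 0.37 and 5.17 in the authors' deposited table, a difference of 4.80. Mmp12, the macrophage elastase, stood at 2.21 in WT and 5.95 in the mutant in the authors' deposited table, a difference of 3.74. All 3 footprint folds were larger in the mutant, and at 24 hr the same genes differed by 5.03, 4.63 and 4.62. In mRNA at 48 hr, Serpina3e-ps and Mmp12 differed by 3.60 and 3.46. Pglyrp3 mRNA was strongly raised in both genotypes and differed by 0.61. Ribosome density, a further deposited fold, differed at 48 hr by -1.39 for Serpina3e-ps, -1.60 for Pglyrp3 and 0.40 for Mmp12. For Serpina3e-ps and Pglyrp3 this was -4.43 and -5.79 from the footprint difference minus the mRNA difference, so these layers conflict. The 24 hr and 48 hr folds share their untreated libraries, so they are set side by side and not counted as separate evidence.

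The footprints of Ccl5, S100a8, Lilrb4a, Cd72 and AI607873 were raised in both genotypes and more so in the mutant. Their mRNA differences at 48 hr were, in this order, 0.45, -1.62, 3.45, -2.36 and -0.075, so mRNA did not share the direction throughout. S100a8, a calcium-binding alarmin of neutrophils and monocytes, stood at 4.72 in WT and 7.66 in the mutant in the authors' deposited table, a difference of 2.94. Lilrb4a, an inhibitory receptor of myeloid cells, stood at 4.60 and 7.21 in the authors' deposited table, a difference of 2.61. Cd72, a B-cell and myeloid receptor, differed by 2.44, and AI607873 by 2.69. Best1, a calcium-activated chloride channel, differed by 2.42 at 48 hr and by -0.80 at 24 hr.

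Others of the 15 were genes that the cytokines lowered in WT. H19, a long non-coding RNA, stood at -4.37 in WT and -0.12 in the mutant in the authors' deposited table, a difference of 4.25. Footprint-sized reads on a non-coding RNA need not be translation. Nppc, the C-type natriuretic peptide, stood at -5.67 in WT and -2.62 in the mutant in the authors' deposited table, and Lgi1, a secreted synaptic protein, at -3.57 and -0.82. Their differences were 3.05 and 2.75 at 48 hr and -0.26 and -0.88 at 24 hr. Cmtm5, a membrane protein of myelinating cells, differed by 2.36, and Col4a4, a basement-membrane collagen chain, by 2.62.

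At the other end, Nts, the precursor of the neuropeptide neurotensin, had the lowest difference of all genes. The authors' deposited table gave its footprint fold at 48 hr as 6.87 in WT and 0.21 in the mutant, a difference of -6.66. The other layers did not share this difference: at 48 hr Nts mRNA differed by -0.30 and its ribosome density by 0.08. That density difference lay 6.44 from the footprint difference minus the mRNA difference, and the cause was not tested. At 24 hr the footprints of Nts were raised in both, by 5.24 in WT and 6.62 in the mutant according to the authors' deposited table. Ibsp, the bone sialoprotein, also turned between the times: in the authors' deposited table it stood at 4.31 in WT and 1.26 in the mutant at 48 hr, against 0.14 and 3.83 at 24 hr. Its differences were -3.05 at 48 hr and 3.69 at 24 hr.

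The remaining low genes were mostly cytokine-raised in both genotypes with a smaller fold in the mutant. Il19, a cytokine of the interleukin-10 family, stood at 8.60 in WT and 6.20 in the mutant in the authors' deposited table, a difference of -2.40. Nlrp3, the sensor of the inflammasome, stood at 10.71 and 8.59 in the authors' deposited table, a difference of -2.12. Wnt10a, a secreted Wnt ligand, differed by -2.52, the transmembrane protein gene Tmem132e by -2.40, the amino acid transporter gene Slc36a2 by -2.68 and Tnfaip8l3, a phosphoinositide-transfer protein, by -2.17. Apart from Tnfaip8l3, these genes were raised in the mutant too, with folds in the authors' deposited table from 2.73 for Slc36a2 to 8.59 for Nlrp3. In 3 others the mutant fold was the more negative one: the lens aquaporin gene Mip, the organic anion transporter gene Slc22a8 and the transthyretin gene Ttr, with differences of -2.55, -2.16 and -2.13.

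The 19 measured chemokines, of 31 listed, spread in both directions. Their median difference was -0.0078 beside 0.0012 for all genes, 9 stood above 0 and 10 below, 3 (15.8%) were at 1 or more and 4 (21.1%) at -1 or less, beside 0.934% and 0.885% of all genes. The middle 50% of them lay between -0.66 and 0.62, a wider band than that of all genes. In WT cells 16 of the 19 were raised, and strongly raised genes of any kind passed the line more often. With slope adjustment, which sets each mutant fold against the value that the regression on the WT fold gives for it, the chemokine median became 0.36, and that of all genes 0.0067.

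Ccl5, which draws T cells and monocytes, had the highest difference of the list. The authors' deposited table gave it 6.64 in WT and 9.67 in the mutant, a difference of 3.03. Ccl20, the ligand of CCR6, stood at 5.82 and 7.81 in the authors' deposited table, a difference of 2.00, and Cxcl5, which draws neutrophils, at 8.18 and 9.41, a difference of 1.23. These 3 had differences of 2.23, 2.02 and 1.06 at 24 hr. Ccl7, which draws monocytes, and Cxcl1, which draws neutrophils, came next with 0.97 and 0.84.

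Ccl17, a ligand of CCR4, had the lowest difference. In the authors' deposited table it stood at 3.77 in WT and 0.87 in the mutant, a difference of -2.90. Cxcl2, which also draws neutrophils, stood at 10.56 and 8.81 in the authors' deposited table, a difference of -1.75. Cxcl2 and Cxcl5 differed in opposite directions. They lie 142247 bases apart on chromosome 5. Cxcl9 and Cxcl11, genes of CXCR3 ligands that interferon-γ raises, lie 31465 bases apart on the same chromosome and differed by -1.58 and -1.02. The annotation types mouse Cxcl11 as a polymorphic pseudogene. The other CXCR3 ligand, Cxcl10, stood at 5.85 in WT and 5.82 in the mutant in the authors' deposited table. At 24 hr these 5 genes (Ccl17, Cxcl2, Cxcl9, Cxcl11 and Cxcl10) differed by -2.10, -1.73, -1.86, -1.82 and -0.22.

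Chemokines with a small difference included Ccl2, the main draw for monocytes, at 0.12 with folds of 7.39 in WT and 7.51 in the mutant in the authors' deposited table, and Cxcl16 at -0.03. Cxcl12, a homeostatic chemokine, gave -0.22, the membrane-bound Cx3cl1 gave -0.45 and Cxcl15 gave -0.87. Ccl9 and Ccl27a both gave 0.40, Ccl6 gave 0.08 and Cxcl14 gave -0.01.

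**Figure D2:**
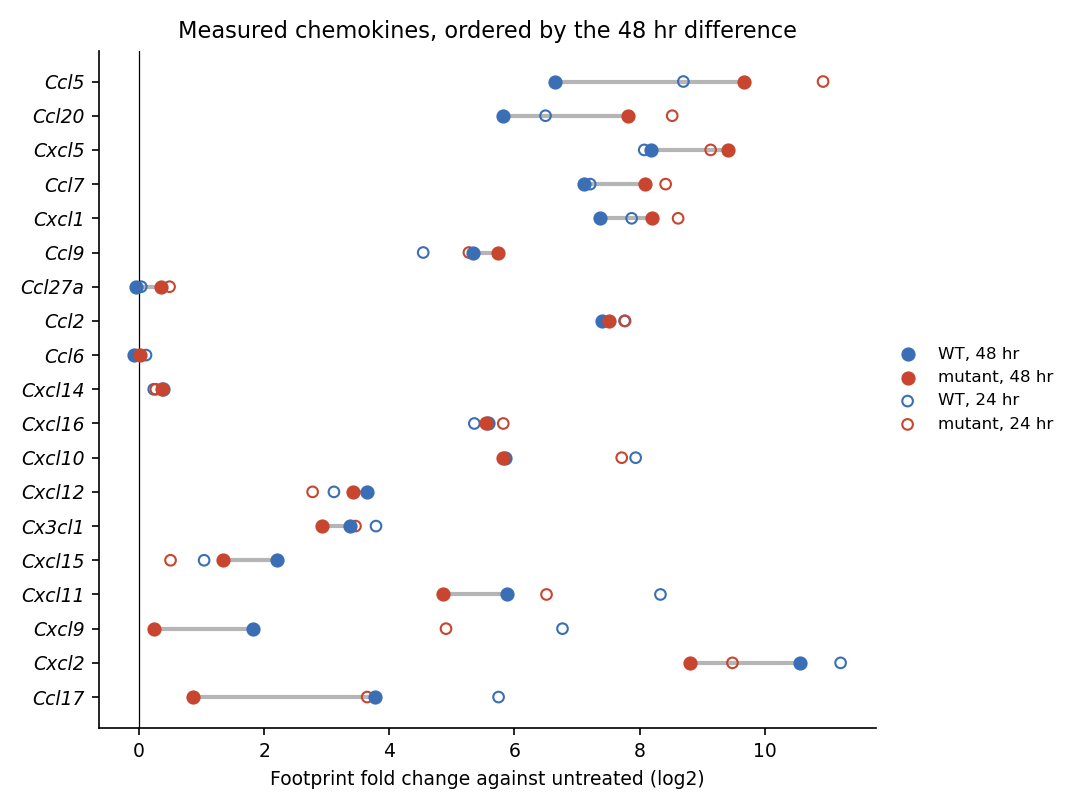
Footprint fold (log2, x axis) of each measured chemokine, with WT in blue and mutant in red, filled for 48 hr and open for 24 hr, all from the authors' deposited table. Ccl5 has the longest bar with the mutant to the right and Ccl17 the longest with the mutant to the left. Cxcl10, Cxcl14 and Ccl2 have nearly coinciding 48 hr points.

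Genes of the NF-kB pathway had a median near 0 and a few members far from it. Of 31 measured members, 22 stood below 0 and 9 above, with a median of -0.10, or 0.07 after slope adjustment. At 1 or more were 3 (9.68%, beside 0.934% of all genes) and at -1 or less 1 (3.23%, beside 0.885%). The feedback inhibitor Nfkbia stood at 2.91 in WT and 2.75 in the mutant in the authors' deposited table, and Tnfaip3, the deubiquitinase that ends the signal, at 4.56 and 4.73. The members past the line were Mmp9, a gelatinase, at 1.47, Traf1, a TNF receptor adaptor, at 1.42, Nos2, which encodes inducible nitric oxide synthase, at 1.33, and Bcl3, a nuclear regulator of NF-kB, at -1.03. Traf1 is the unusual one, since the authors' deposited table lists it as lowered, at -2.27 in WT and -0.85 in the mutant.

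Cytokines and growth factors leaned low. Of 25 measured members 17 stood below 0, and the median was -0.24. At -1 or less were 2 (8%, beside 0.885% of all genes): Il19, and Clcf1, a ligand of the CNTF receptor, with -1.01. The T-cell costimulator Tnfsf9 gave -0.97. Tnfsf11, the osteoclast factor RANKL, was the only one at 1 or more (4%, beside 0.934% of all genes). It stood at 6.67 in WT and 7.71 in the mutant in the authors' deposited table. The central astrocyte cytokine Il6 had folds of 5.00 in WT and 4.55 in the mutant, and the granulocyte factor Csf3 of 6.57 and 6.54, per the authors' deposited table. Among the authors' own 74 genes of cytokine activity, the median was -0.07, with 5 (6.76%) at 1 or more and 6 (8.11%) at -1 or less, beside 0.934% and 0.885% of all genes. Several of the chemokines above are also in that list.

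Interferon-response genes split by family. Of 52 measured genes, 35 stood below 0 and 17 above, with a median of -0.13 that became 0.05 after slope adjustment. At -1 or less were 3 (5.77%, beside 0.885% of all genes) and at 1 or more none. The 3 were Tgtp2, an immunity-related GTPase, at -2.69, Oas1a at -2.67 and Oas3 at -2.22. At 24 hr these 3 genes differed by -0.06, -1.42 and -1.42. Their mRNA differences at 48 hr were -0.15, 1.30 and -1.41. Oligoadenylate synthetases make the messenger that switches on RNase L, and 4 of the 5 measured Oas genes stood below 0. Oas1a stood at 4.18 in WT and 1.52 in the mutant in the authors' deposited table. Guanylate binding proteins, GTPases that attack intracellular microbes, stood mostly the other way. Of 9 measured Gbp genes, 7 were above 0, and the family median was 0.45. Gbp10 stood at 6.71 in WT and 7.70 in the mutant in the authors' deposited table, and Gbp5 at 5.98 and 6.96. The broad interferon gene Ifit3 hardly differed, with 2.14 in WT and 2.12 in the mutant in the authors' deposited table. The Oas and Gbp families were singled out after their values were seen. Oas genes, Gbp genes and Tgtp2 have close relatives in the genome, and the sources used here do not say how the authors' counting divided shared reads.

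Class I antigen presentation gave a median of -0.14 over 22 genes, 15 of them below 0 and none past the line, and the slope-adjusted median was 0.02. The class I genes H2-Q6 and H2-Q7, near copies of each other, stood at -0.91 and 0.85, and how reads shared between them were divided was not tested. Psme2, a proteasome activator subunit, gave -0.56. Complement gave a median of 0.07 over 14 genes. Cfb, the protease of the alternative pathway, differed by 0.85, whereas C1rb, a copy of the C1r protease gene, differed by -1.02, with folds of 5.21 in WT and 4.19 in the mutant in the authors' deposited table. The complement regulators Cd55 and Cfi gave -0.79 and -0.70.

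Serpina3 genes, of a family of serine protease inhibitors of the α1-antichymotrypsin type, formed the densest run of higher genes. On chromosome 12 (GRCm38), 8 members were measured over 268 kb. Of these, 4 neighbours between 104189517 and 104253669 were at 1 or more, beside 0.934% of all genes. In genome order these were Serpina3e-ps at 6.64, Serpina3f at 3.20, Serpina3g at 1.94 and Serpina3h at 1.55. Both Serpina3e-ps and Serpina3h are annotated as pseudogenes. The other 4 stood within 1 of 0: Serpina3c at 0.18, Serpina3i at -0.85, Serpina3m at 0.21 and Serpina3n, the reactive astrocyte marker, at -0.19. Serpina3f stood at 7.20 in WT and 10.40 in the mutant in the authors' deposited table. Its mRNA fold differed the other way, by -0.97, as did that of Serpina3g, by -1.43, whereas the mRNA differences of Serpina3e-ps and Serpina3h were 3.60 and 0.62, in the direction of their footprints. These paralogues are near copies, so reads may be divided among them in the authors' counting, and their values are uncertain to that extent.

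Among the 222 genes past the line, 17 pairs lay within 200 kb of each other. In 14 pairs both genes differed in the same direction, and 6 of these 14 were pairs within the Serpina3 run. How often measured genes in general lie this close, or share a direction, was not counted, so these counts have no background beside them. H19 and its imprinted neighbour Igf2, a growth factor, lie 72623 bases apart on chromosome 7 and differed by 4.25 and 1.99. Igf2 stood at -2.01 in WT and -0.02 in the mutant in the authors' deposited table. The head-to-head collagens Col4a4 and Col4a3, which share the start region printed with the chemokine windows, were lowered in both genotypes and less so in the mutant: Col4a3 stood at -5.58 and -3.98 in the authors' deposited table. Their 24 hr differences were 0.69 and 0.37. Oas3 and Oas1a on chromosome 5 form a pair with both genes lower. These pairs include gene families, and neighbours were listed after the 222 genes were known.

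Immediate early genes, which transcription switches on within minutes of a signal, had the lowest median of all lists. Of 22 measured members 19 stood below 0 and 3 above, with a median of -0.37 beside 0.0012 for all genes, and 3 (13.6%, beside 0.885% of all genes) were at -1 or less. Ier2 stood at 1.79 in WT and 0.48 in the mutant in the authors' deposited table, a difference of -1.31. Klf2, a zinc-finger factor that restrains inflammation, stood at -0.07 and -1.29 in the authors' deposited table, a difference of -1.22. Fosl1, an AP-1 subunit, stood at 3.65 and 2.49 in the authors' deposited table, a difference of -1.17. In all 3 the mutant fold was the lower one. Zfp36, which destabilises cytokine mRNAs, gave -0.82. The 3 members above 0 were Egr2, Jund and Nr4a2.

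The mRNA difference of the same genes had a median of 0.09, or -0.21 after the median of each transcript-GC bin was subtracted. At 24 hr the median footprint difference of the list was -0.24, with 4 members above 0. Immediate early mRNAs have short coding sequences, with a median of 1012 bases beside 1473 for all genes, and after the same kind of subtraction for coding length the list's 48 hr median was -0.22.

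**Figure D3:**
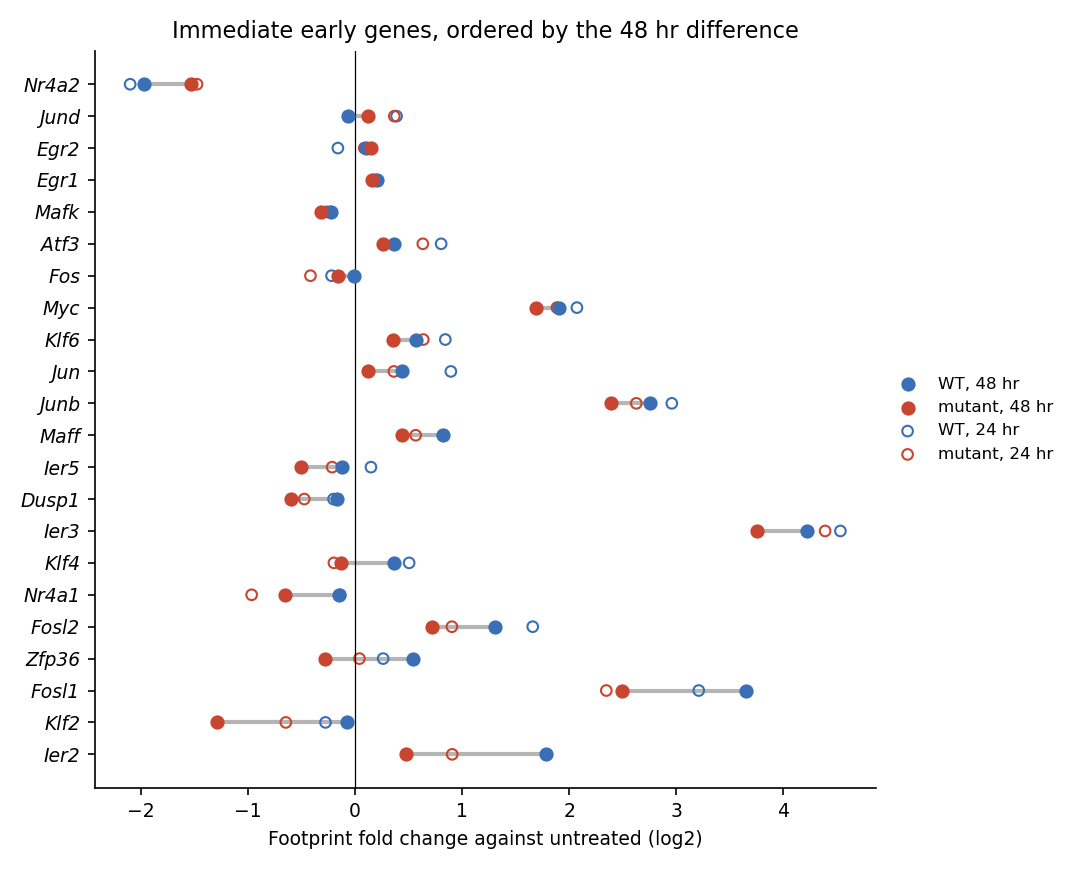
Footprint fold (log2, x axis) of the 22 measured immediate early genes, with WT in blue and mutant in red, filled for 48 hr and open for 24 hr, all from the authors' deposited table. In 19 of the 22 the filled red point lies left of the filled blue one, farthest for Ier2, Klf2 and Fosl1.

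Stress-response genes downstream of eIF2 leaned slightly low. ATF4 targets, the genes that the transcription factor ATF4 turns on when eIF2 recharging is slowed, had a median of -0.14, with 29 of 42 below 0, none at 1 or more and 2 (4.76%, beside 0.885% of all genes) at -1 or less. Cebpb, a leucine-zipper factor of the acute-phase response, stood at 3.36 in WT and 1.74 in the mutant in the authors' deposited table, a difference of -1.62. At 24 hr it differed by -1.51. Cth, the cysteine-making cystathionine γ-lyase, gave -1.03. Slc7a11, the cystine importer, had folds of 4.65 in WT and 3.81 in the mutant, and Gdf15, a stress hormone, of 1.12 and 0.35, per the authors' deposited table. The highest was Pycr1, a proline-making enzyme, at 0.51 in WT and 1.09 in the mutant in the authors' deposited table, and Nupr1 and Phgdh stood above 0 as well.

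Atf4 itself stood at 1.03 in WT and 0.60 in the mutant in the authors' deposited table, a difference of -0.43, and differed by -0.83 at 24 hr. The 20 mRNAs with regulatory upstream reading frames, Atf4 and Cebpb among them, had a median of -0.09 with 12 below 0. Ifrd1 gave -0.41, and Fam126a, the highest, gave 0.57. The unfolded protein response, which senses misfolded proteins in the endoplasmic reticulum, gave a median of -0.12 with 19 of 28 below 0, led by the chaperone partners Sdf2l1 at -0.71 and Creld2 at -0.69, with Herpud1 at -0.61 and Manf at -0.44.

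Subunits of eIF2B and eIF2 had small folds in both genotypes. The mutated gene Eif2b5 stood at 0.07 in WT and 0.06 in the mutant in the authors' deposited table. A point mutation need not alter footprints, so this does not check the genotype. Eif2b1, Eif2b3 and Eif2b4 gave 0.02, -0.13 and -0.03, and the eIF2 subunits Eif2s1, Eif2s2 and Eif2s3x gave -0.04, 0.13 and -0.35. Eif2b2, the beta subunit, was the lowest at -0.56, with 0.28 in WT and -0.28 in the mutant in the authors' deposited table. The 9 eIF2 kinases, phosphatase subunits and regulators had a median of -0.0029, between Impact at -0.34 and Eif2ak4, the GCN2 kinase, at 0.22.

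Genes of the protein-making and protein-degrading machinery differed by small amounts that mostly pointed down. Constitutive proteasome subunits had a median of -0.22, with 27 of 31 below 0 and a band of -0.33 to -0.15 for the middle 50%. Psma5 stood at 1.06 in WT and 0.44 in the mutant in the authors' deposited table. Psma3, a subunit of the same ring, had the highest difference of the list, 0.57, since the authors' deposited table puts it at 0.31 in WT and 0.88 in the mutant, and Psmb5, Psmd6 and Psmd1 also stood above 0. After subtraction by coding-length bin the proteasome median was -0.11. The list's mRNA difference had a median of 0.03.

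Ribosomal protein genes of the authors' list had a median of -0.04, with 44 of 77 below 0 and none past the line. The authors had divided these genes by their WT values, so the division shares libraries with the comparison. The 54 they call translationally regulated had a median of -0.11, and the other 23 a median of 0.05. Rpl37a stood at 0.99 in WT and 0.10 in the mutant in the authors' deposited table, Rpl6 at 1.10 and 0.27, and Rps23 at 0.16 and 0.82. The mRNA difference of the 54 genes was 0.69 in the median. Mitochondrial ribosomal proteins gave -0.10 over 76 genes, and translation factors gave -0.06 over 44 genes, from Eif3l at -0.51 to Eif3k at 0.62. Aminoacyl-tRNA synthetases, 20 genes, gave -0.08, with Wars, the interferon-inducible tryptophan enzyme, lowest at -0.40. After subtraction by coding-length bin, the median of the 77 ribosomal protein genes was -0.05 and that of the mitochondrial ones -0.03. Those of translation factors and aminoacyl-tRNA synthetases were then -0.03 and -0.08.

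Oxidative phosphorylation genes of the authors' list gave a median of -0.08 over 75 genes, with Ndufa6 at -0.73 and Cox10 at -0.63. Genes encoded in mitochondrial DNA stood the other way, with 8 of 9 above 0 and a median of 0.12. mt-Nd6 and mt-Nd3 gave 0.46 and 0.41, and mt-Atp8 gave -0.69. These mRNAs are translated by the mitochondrial ribosome. Glycolysis and the citric acid cycle gave -0.13 over 34 genes at 48 hr and 0.05 at 24 hr, and the oxidative phosphorylation median at 24 hr was 0.01. Ldha and Ldhb, which encode partner subunits of lactate dehydrogenase, differed in opposite directions. Ldha was at 1.22 in WT and 0.53 in the mutant in the authors' deposited table, and Ldhb was at -1.14 and -0.64. Idh3a gave -0.81 and the lactate exporter Slc16a3 -0.81.

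Cholesterol biosynthesis, from the authors' list, had a median of -0.12 over 28 genes. Mvk and Mvd, enzymes of the mevalonate pathway, gave -0.80 and -0.64, and Acat3 gave 1.21. Antioxidant enzymes gave -0.12 over 32 genes with Txn2, the mitochondrial thioredoxin, at -0.60, and heat-shock and folding proteins gave -0.13 over 23 genes (0.04 at 24 hr), from -0.38 for Cct3 to 0.38 for Hspe1. Lysosomal genes gave -0.02 over 33, with the cathepsins Ctsd, Ctsh, Ctsb and Ctsz at -0.55, -0.43, -0.37 and -0.37.

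Proliferation genes were close to even. Mitosis genes had a median footprint fold of -1.68 in WT and -1.76 in the mutant. Their median difference was 0.07 over 30 genes at 48 hr, with 19 above 0, and 0.31 at 24 hr, with 27 above 0. The slope-adjusted median at 48 hr was -0.03. Bub1, a spindle checkpoint kinase, stood at -2.33 in WT and -1.68 in the mutant in the authors' deposited table, whereas Cenpa, the centromeric histone, stood at -1.13 and -2.23. The authors' DNA replication list gave 0.06 at 48 hr and 0.27 at 24 hr over 34 genes. Dna2, a replication nuclease, differed by 0.48 at 48 hr and 2.29 at 24 hr. The authors' apoptosis list gave -0.06 over 67 genes, with none past the line, and histones gave 0.05 over 11 genes at 48 hr and -0.21 at 24 hr.

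Matrix gene lists had medians close to 0 and a few members far from it. Collagens had a median of 0.06 over 28 genes. Col4a4 and Col4a3 alone were past the line, both upward (7.14%, beside 0.934% of all genes), and Col28a1 stood at -0.69. Metalloproteinases and their inhibitors had a median of 0.07 over 28 genes. Mmp12 and Mmp9 were past the line, both upward (7.14%, beside 0.934% of all genes). Timp1, the general inhibitor, stood at 2.86 in WT and 2.16 in the mutant in the authors' deposited table.

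Markers of astrocytes, the labelled cell type, were measured for the most part, although the table gives no level by which to judge purity. Of 25 listed markers 22 were measured, none passed the line, and the median was 0.04 with 14 above 0. Slc1a3, the glutamate transporter, stood at 0.60 in WT and 0.56 in the mutant in the authors' deposited table, Aqp4, the water channel, at -0.26 and -0.25, and Gja1, connexin 43, at -0.57 in both. The largest were Ndrg2 at 0.53, Clu at -0.49, Glul at -0.46 and S100b at 0.44. Reactive astrocyte genes gave a median of -0.16 over 34 genes at 48 hr and 0.0047 at 24 hr, with Lcn2 at 7.40 and 7.50 in the authors' deposited table, Gfap at -2.12 and -2.23, and Tgm1, a transglutaminase, highest at 1.34.

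Markers of other cell types were fewer and more scattered. Of 22 microglia and macrophage markers 8 were measured, and the other 14 were not analysed here. Their median was 0.07, with 4 above 0, but the list reached from -0.42 for Cd14 to 3.74 for Mmp12, and Lilrb4a and Adgre1, the F4/80 antigen, gave 2.61 and 0.95. Cd68 and Tmem119 stood at 0.26 and 0.81 in WT and at 0.49 and 0.55 in the mutant in the authors' deposited table. The table holds no levels, so how many such cells the cultures held, and their part in the higher folds of Mmp12, Lilrb4a, Cd72 and S100a8, was not tested.

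Fibroblast and mural markers had a median of -0.17, with 12 of 14 below 0, led by Myh11, smooth-muscle myosin, at -0.87. Neuronal markers had 6 of 7 below 0 and a median of -0.22, led by Syt1 at -0.76. At 24 hr the fibroblast and mural list stood on the other side of 0, with a median of 0.18 and 10 of 14 above 0. The neuronal median at 24 hr was 0.0056, close to the -0.0042 of all genes, with 6 of 7 above 0. Oligodendrocyte lineage markers gave -0.08 over 8, with Cldn11, the tight-junction protein of myelin, at 0.68, the progenitor receptor gene Pdgfra at 0.60 and the transcription factor gene Olig1 at -0.47. Endothelial markers gave -0.04 over 7, with Tek, the angiopoietin receptor, highest at 0.98. The 24 hr medians of the oligodendrocyte and endothelial lists were 0.16 and 0.14. Ependyma and choroid markers gave 0.16 over 8, with Ttr as the outlying member at -2.13.

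**Figure D4:**
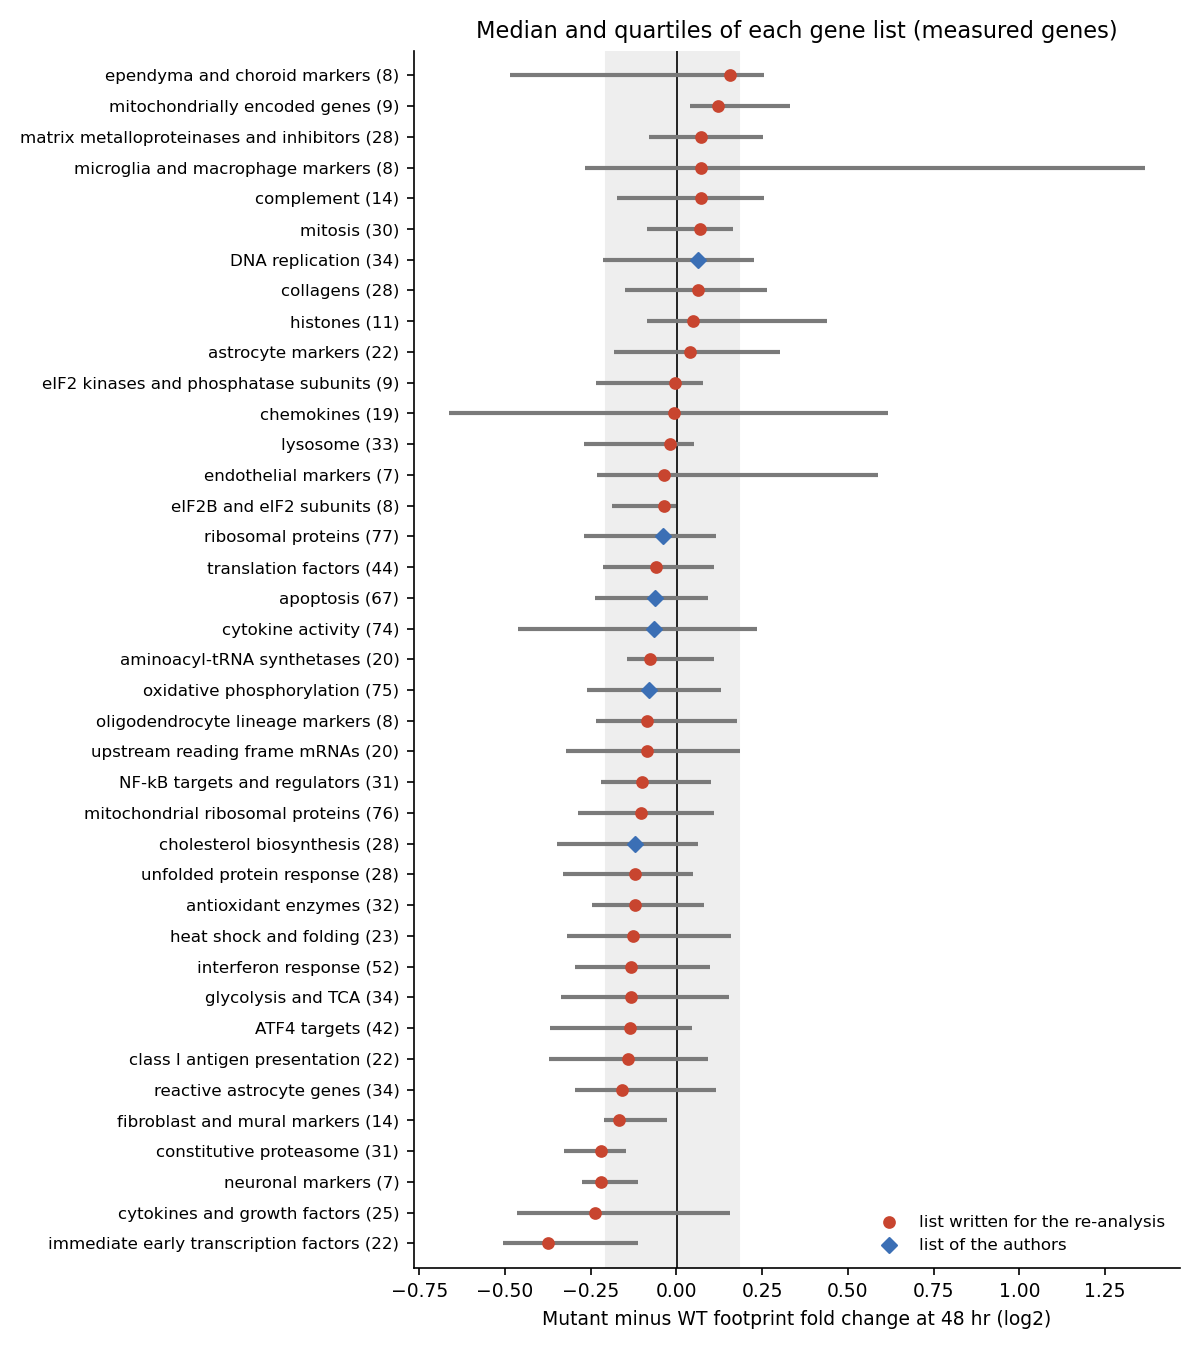
Median (symbol) and middle 50% (bar) of the mutant minus WT footprint difference at 48 hr (log2, x axis) for 39 gene lists, with the number of measured genes in brackets, red circles for lists written for the re-analysis and blue diamonds for the authors' lists. The line is the median of all genes and the grey band their middle 50%. In 29 lists the median lies left of the line, 35 medians lie inside the band, and immediate early genes are farthest left at -0.37.

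Across the 39 lists plotted, medians ran from -0.37 to 0.16, and 35 of them lay within the middle 50% of all genes. In 5 lists the upper quartile lay below the median of all genes: immediate early genes, the proteasome, neuronal markers, fibroblast and mural markers, and eIF2B and eIF2 subunits.

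mRNA folds from RNA-seq of the same lysates were set beside the footprint differences. Over all genes the mRNA difference at 48 hr was wider than the footprint difference, with 901 genes (7.38%) at 1 or more and 86 (0.705%) at -1 or less. Across 12204 genes the Pearson correlation of the footprint and mRNA differences was 0.08, given as a description, since genes share libraries and base composition. Of the 114 genes with higher footprints, 29 had an mRNA difference of 1 or more and 11 of -1 or less. These 29 were 25.4% of the 114 and 3.22% of the 901. Of the 108 genes with lower footprints, 20 had an mRNA difference of -1 or less and 12 of 1 or more. The 20 were 18.5% of the 108 and 23.3% of the 86.

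Named genes fell on both sides. Mmp12 and Lilrb4a had mRNA differences of 3.46 and 3.45 beside footprint differences of 3.74 and 2.61. Ccl5, Ccl20 and Cxcl5 had mRNA differences of 0.45, -0.23 and -0.10 beside footprint differences of 3.03, 2.00 and 1.23. Nlrp3 and Tmem132e went opposite ways in the layers, with mRNA differences of 2.53 and 4.55 beside footprint differences of -2.12 and -2.40. Cebpb, Ccl17 and Nts had mRNA differences of -0.26, 0.25 and -0.30. Among the 15 highest named genes the mRNA difference had the same sign as the footprint difference in 11, and among the 15 lowest in 8. Of all 12204 genes, 5758 (47.2%) had an mRNA difference above 0 and 6446 one below 0, so the 8 lie near the share of all genes.

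Base composition and coding length moved with these layers. The mRNA difference climbed with transcript GC content, from a median of -0.36 in the quintile of genes with the lowest GC to 0.76 in that with the highest (Spearman 0.77 across 11991 genes). The footprint difference went from 0.03 to -0.04 over the same quintiles (Spearman -0.08). Coding length showed the reverse pattern. The footprint difference had a median of -0.16 in the quintile around 1029 bases and 0.16 in the quintile around 3657 bases (Spearman 0.30), while the mRNA difference stayed between -0.07 and -0.01. WT and mutant libraries were made in separate sets, and whether the sets differ in GC or length response was not tested. With GC-bin medians subtracted, 138 genes had an mRNA difference of 1 or more and 126 of -1 or less. Of the 108 higher genes with a GC value, 23 (21.3%) were then at 1 or more and 11 (10.2%) at -1 or less. Of the 102 lower ones, 23 (22.55%) were at -1 or less and 11 (10.8%) at 1 or more. Over all genes with a GC value, 1.15% were at 1 or more and 1.05% at -1 or less, so both directions exceeded these shares.

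**Figure D5:**
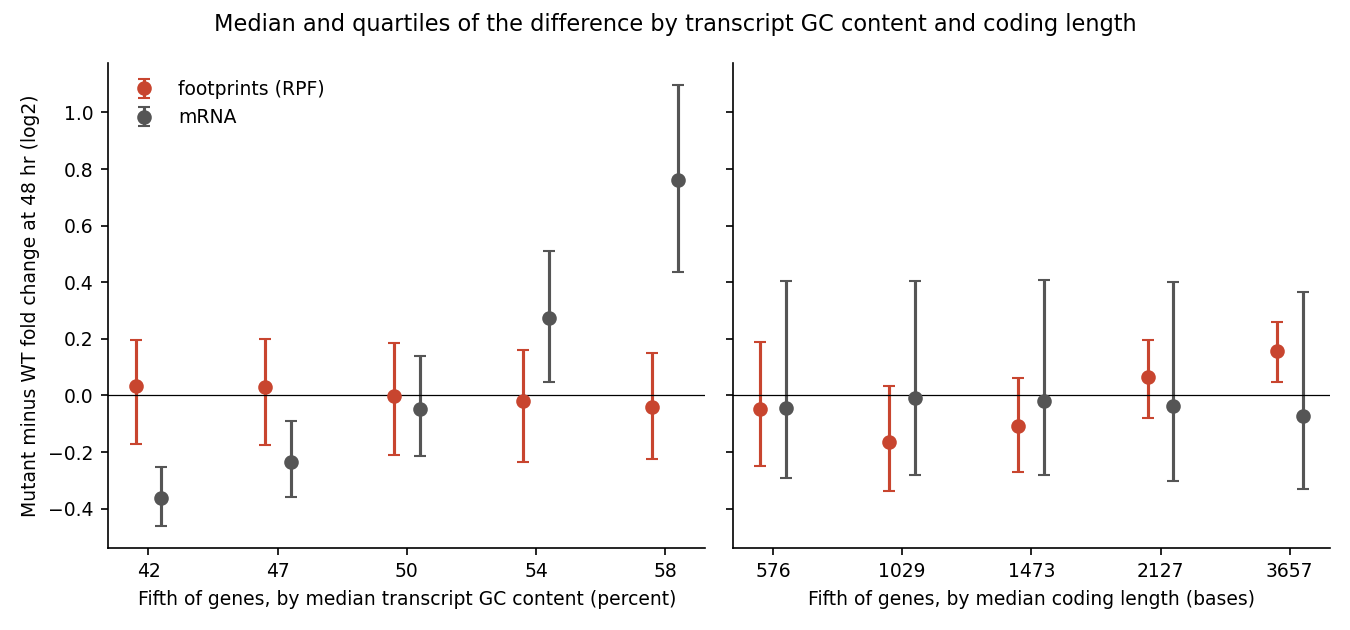
Median and middle 50% (bars) of the mutant minus WT difference at 48 hr (log2, y axis) for footprints (red) and mRNA (grey), in 5 equal groups of genes ordered by transcript GC content (left) and by coding length (right). The mRNA medians climb from -0.36 to 0.76 with GC content, and the footprint medians go from -0.05 in the shortest group through -0.16 to 0.16 in the longest.

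Ribosome density (RD) is the remaining fold in the authors' deposited table, and the sources used here do not say how it was computed. The RD difference was at 1 or more for 392 genes (3.21%) and at -1 or less for 945 (7.74%). For 51 of all 12204 genes (0.418%) the RD difference was 1 or more away from the footprint difference minus the mRNA difference. Of the 222 genes past the line it was so for 29 (13.1%), among them 6 of the 15 highest and 9 of the 15 lowest named genes. For Nts the RD difference was 0.08, and for Serpina3e-ps it was -1.39.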

How the data were processed

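Members and gene lists were chosen with earlier results of these data known. Per the submitters' processing notes, reads were handled with TopHat2 and featureCounts on mouse build mm10, with no versions given. Per the file headers, the authors deposited log2 folds of treated over untreated cells for mRNA, RPF (ribosome-protected fragments) and RD, 12 per gene, pooled over libraries. The sources used here do not say how RD (ribosome density) and the folds were computed. The authors' deposited table of translation scores also has a signal column (density of elongation reads), and only its gene membership was used.

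The WT fold was subtracted from the mutant fold, and genes at or beyond a difference of 1 were counted. The unit allows no test. Damaged symbols (31) were replaced through Ensembl identifiers. Positions, GC content and coding length came from GENCODE M21 on GRCm38, the assembly of mm10, for 11992 genes, and promoter windows from RefSeq, chromosome 18 left out. Corrections subtracted the median of each of 20 bins. Named were the 15 genes at each end (predicted models left out), up to 4 members per list with the largest absolute difference, all chemokines and all eIF2B and eIF2 subunits. Others named were chosen after their values were seen, and a few genes are not reported here. There were 33 lists written for the re-analysis and 6 of the authors. Counts and corrections were tested on simulated data. Software was Python 3.11.15 with numpy 2.4.6 and pandas 2.3.3 for the values and matplotlib 3.10.9 for the figures. Alternatives were centring, slope adjustment, other thresholds, the translation-score table, no predicted models, GC content, the other layers and 24 hr. Coding length was added after seeing the data.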

Additional observations from a re-analysis of the deposited data

How the results depend on the processing

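No paired analysis was possible because the table gives a single pooled fold per gene and no column per batch, and for the same reason no library could be left out. A value without a test was held to have moved when it changed by 0.1 or more on the log2 scale, and a count when it changed by over 1.5 times. The counts of 114 higher and 108 lower genes stayed within 1.5 times when the differences were centred, slope-adjusted, corrected for GC content or coding length, stripped of predicted gene models, or taken at 24 hr. They became 411 and 474 at a threshold of 0.58, 17 and 19 at a threshold of 2, and 1 and 1 among the genes of the translation-score table. With mRNA differences in their place 901 genes were at 1 or more, and with RD differences 392 were at 1 or more and 945 at -1 or less. The median of all genes moved with RD only, to 0.12. Medians below that of all genes were found in 34 of 45 lists (the authors' subdivisions counted), in 19 with mRNA and in 23 to 35 under the other settings. Of the 45 list medians, 31 moved with mRNA, 28 with RD, 16 at 24 hr, 7 with the slope adjustment, 7 with the coding-length correction and none with GC content, and 13 of 42 moved in the translation-score table. Medians on the other side of 0 from the 48 hr footprint value numbered 25 with mRNA, 14 with RD, 14 at 24 hr, 8 with the slope adjustment, 6 with coding length, 6 in the translation-score table and 2 with GC content. Sign changes past the line set aside, of 196 named genes 161 moved at 24 hr, 161 with RD, 158 with mRNA and 76 with the slope adjustment, and of 194 with a coding length 114 moved with its correction. Sign changes among named genes past the line came from the other layers and the other time alone. Their cause was not tested. With mRNA differences the values were Serpina3f -0.97, S100a8 -1.62, AI607873 -0.075, Cd72 -2.36, Ccl20 -0.23, Mmp9 -1.42, Cxcl5 -0.097, Acat3 -0.16, Tnfsf11 -0.47, Clcf1 0.14, C1rb 2.58, Bcl3 1.24, Ier2 0.48, Cxcl9 1.07, Cxcl2 0.55, Nlrp3 2.53, Ttr 1.04, Il19 0.96, Tmem132e 4.55, Mip 3.08, Oas1a 1.30 and Ccl17 0.25. With RD differences they were Serpina3e-ps -1.39, Pglyrp3 -1.60, Lilrb4a -0.31, Best1 -0.34, Tgm1 -0.18, Nos2 -0.37, Cxcl11 0.61, Tnfaip8l3 0.41, Oas3 0.031, Ibsp 0.20 and Nts 0.080. At 24 hr they were Nppc -0.26, Lgi1 -0.88, Best1 -0.80, Ibsp 3.69 and Nts 1.39. Unknown depth limits every value: the folds farthest from 0 may rest on few footprints, and no interval can be given.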

Other observations

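Further genes past the line, chosen after their values were seen, add to both ends. Acod1, which makes the antimicrobial metabolite itaconate, stood at 8.00 in WT and 9.95 in the mutant in the authors' deposited table, with an mRNA difference of -2.71. Madcam1, an adhesion ligand for lymphocytes, had folds of 8.34 in WT and 10.32 in the mutant, and Saa3, an acute-phase protein, of 8.88 and 10.09, per the authors' deposited table. Cybb, the catalytic subunit of the phagocyte oxidase, Camp, the cathelicidin precursor, and Hpx, the haem-binding hemopexin, differed by 1.10, 1.16 and 1.12. Cd74, the invariant chain of class II antigen presentation, differed by 1.73 and the transcription factor gene Spib by 1.75.

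At the low end, Serpinb2, plasminogen activator inhibitor 2, stood at 7.56 in WT and 5.52 in the mutant in the authors' deposited table. The matricellular gene Ctgf differed by -1.02. Ereg, a ligand of the EGF receptor, differed by -1.17 and Oxtr, the oxytocin receptor, by -1.78. Opn4, the photopigment melanopsin, differed by -1.38 at 48 hr and by 3.95 at 24 hr, another gene whose value turned between the times.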
